A study of Mus musculus with 10 samples.

Results

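Rpl3l and Rpl3 are a pair of genes for the same position in the ribosome. Their rows were found by name, as those called Rpl3l and Rpl3 in the deposited gene tables, and the pair was picked with earlier results of these data known. They are 2 of the 55401 genes in the tables and both were among the 11867 genes that were tested. Rpl3 encodes a core protein of the 60S (large) ribosomal subunit that is made in nearly all cells and reaches close to the peptidyl transferase centre, where peptide bonds form. Rpl3l encodes its paralog, a ribosomal protein known for being restricted to heart and skeletal muscle, where it rises after birth and takes the place of RPL3 in the ribosomes of mature muscle fibers and cardiomyocytes (CMs). Either protein fills the same site of a 60S subunit, and the ratio of the transcripts describes their balance at the level of RNA.

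Total RNA from the left ventricle (LV) of WT mice of C57BL/6 background at 4 weeks of age was sequenced. The study put both sexes into each group at random, and the labels do not give the sex of a library. The 5 nAAC mice had undergone surgical constriction of the ascending aorta as newborns, which puts the LV under pressure overload, and the 5 sham mice had undergone the operation without it. Neonates of both groups were kept and nursed by their mothers. Each mouse gave 1 library, and the sequenced tissue was the whole LV wall with all its cell types, so fewer cells of a type and less RNA per cell cannot be told apart.

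Values are FPKM, that is fragments per kilobase of transcript normalized to all mapped fragments, which correct for gene length and for library depth. The depth, estimated from the modal FPKM to coverage ratio, which at most 16.6% of genes held in any library, lay between 4.86 and 6.82 gigabases of aligned sequence in nAAC and between 5.06 and 5.24 in sham libraries. Read counts are not known, and errors are those between mice. Genes with an FPKM of at least 1 numbered from 11889 to 12455 in nAAC and from 11182 to 11721 in sham libraries. The mitochondrial share of TPM (FPKM values scaled to a fixed total per library) was 32.9% to 39.9% in nAAC libraries and 46.5% to 49.8% in sham replicates 1 to 3, while sham replicates 4 and 5 had 33.7% and 38.3%, within or near the nAAC range. Its part in the results was not tested. Sham replicate 4 also had the highest levels of both Rpl3l and Rpl3 in its group, and the highest mean level of the other 60S protein genes. Values without it are therefore given beside the results that rest on it. CM markers identified the tissue, with Myh6 at 1790 ± 352 FPKM in nAAC and 2149 ± 370 FPKM in sham LV (SD, n = 5). The 9 markers of skeletal muscle, the other tissue that makes Rpl3l, summed to at most 1.94 FPKM in any nAAC and 2.71 FPKM in any sham library, with Myh4 and Tnnc2 at 0 throughout.

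In the mouse build GRCm38 (mm10), Rpl3l (ENSMUSG00000002500) lies on the forward strand of chromosome 17, from 24727820 to 24736143. Rpl3 (ENSMUSG00000060036) lies on the reverse strand of chromosome 15, from 80077791 to 80091868. Their main coding transcripts in the GENCODE M21 annotation have the same plan, with 10 exons each and coding sequences of 1224 bases in Rpl3l and 1212 bases in Rpl3. The coding sequences were aligned to see whether reads of one gene could be taken for the other. Of 1209 aligned bases 898 were identical (74.3%) and 311 differed. The longest identical run was 22 bases, and no window of 25 bases was shared. The stretches of 120 bases where the genes are most and least alike are printed below from GENCODE M21, 5′ to 3′ on the coding strand, because they show how far apart the transcripts are even where they match best. Capitals mark the bases that differ between both genes. The first pair covers coding bases 456 to 575 of each gene and runs from exon 4 into exon 5, at chr17:24732426-24733382 for Rpl3l and chr15:80080479-80080941 for Rpl3 with the intron between, and 22 of the 120 bases differ.
Rpl3l, most alike: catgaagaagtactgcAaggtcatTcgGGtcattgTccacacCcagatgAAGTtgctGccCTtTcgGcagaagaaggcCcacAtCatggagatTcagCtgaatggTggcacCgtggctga
Rpl3, most alike: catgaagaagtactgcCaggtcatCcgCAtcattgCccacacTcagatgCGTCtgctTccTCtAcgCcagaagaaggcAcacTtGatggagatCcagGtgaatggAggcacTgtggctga
The second pair covers coding bases 856 to 975 and runs from exon 7 into exon 8, at chr17:24733923-24735440 for Rpl3l and chr15:80078403-80078802 for Rpl3, and 42 of the 120 bases differ.
Rpl3l, least alike: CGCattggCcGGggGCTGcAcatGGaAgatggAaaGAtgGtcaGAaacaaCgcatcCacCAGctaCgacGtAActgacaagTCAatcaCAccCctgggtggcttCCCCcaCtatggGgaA
Rpl3, least alike: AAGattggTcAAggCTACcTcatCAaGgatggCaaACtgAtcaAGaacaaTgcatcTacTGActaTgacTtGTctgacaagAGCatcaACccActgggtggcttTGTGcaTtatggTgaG
In both stretches the processed pseudogene Rpl3-ps1 carries the Rpl3 sequence without a difference over 120 bases. Over the whole coding sequence Rpl3-ps1 differs from Rpl3 at 2 of 1209 aligned bases and Rpl3-ps2 at 10 of 1211. Rpl3 is thus the member whose reads could be divided among copies, while Rpl3l shared no window of 50 bases with any other annotated gene.

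Rpl3l was lower in nAAC than in sham LV. The nAAC libraries, replicates 1 to 5, held 11.8, 24.6, 16.0, 26.4 and 29.0 FPKM of Rpl3l. The sham libraries held 70.1, 50.02, 56.8, 129.7 and 90.3 FPKM. The highest nAAC library was below the lowest sham library, so the groups did not overlap, and the sham libraries were spread the more widely. Group means were 21.5 ± 7.30 FPKM in nAAC and 79.4 ± 32.1 FPKM in sham LV (SD, n = 5), a 3.69-fold lower mean. On the log2(FPKM + 1) scale the fold change (FC) was -1.82 with an SE of 0.281 (limma, adjusted p = 0.000368 over 11867 genes). The exact permutation test of the FPKM values gave p = 0.00794, two-sided, the smallest that 5 against 5 libraries allow. Only 19 of the genes tested had a lower log2 FC, since Rpl3l took rank 20 from the lowest. Without sham replicate 4 the sham mean was 66.8 ± 17.8 FPKM and the log2 FC -1.62.

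Rpl3 was higher in nAAC than in sham LV. The nAAC libraries held 138, 143, 129, 140 and 126 FPKM. The sham libraries held 55.5, 68.5, 55.9, 94.7 and 73.3 FPKM. Again the groups did not overlap, and here the nAAC libraries lay close together. Means were 135 ± 7.16 FPKM in nAAC and 69.6 ± 16.1 FPKM in sham LV (SD, n = 5), a 1.94-fold higher mean. The log2 FC was 0.97 with an SE of 0.153 (limma, adjusted p = 0.000416), and the exact permutation test gave p = 0.00794. Rpl3 ranked 646 from the highest log2 FC. Without sham replicate 4 its log2 FC was 1.09.

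Both members passed an adjusted p of 0.05, and so did 31.7% of all genes tested, 27.1% as higher and 4.6% as lower in nAAC. With the additional requirement of an absolute log2 FC above 1, by which the study defined differentially expressed genes (DEGs), Rpl3l was a DEG and Rpl3 fell just short of that limit. DEGs made up 5.91% of the genes tested, of which 0.893% of the genes tested were lower in nAAC as Rpl3l was and 5.01% higher. Nonoverlapping groups were seen in 3.46% of genes in the direction of Rpl3l and in 18.9% in that of Rpl3. The median log2 FC of all genes was 0.22, above 0, and scaling the libraries by their median ratio moved it to -0.00. That scaling also changed the calls over all genes from 3211 higher and 546 lower to 1563 higher and 1431 lower. Under it Rpl3l had a log2 FC of -2.09 and Rpl3 of 0.70, and both still passed the test.

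**Figure D1:**
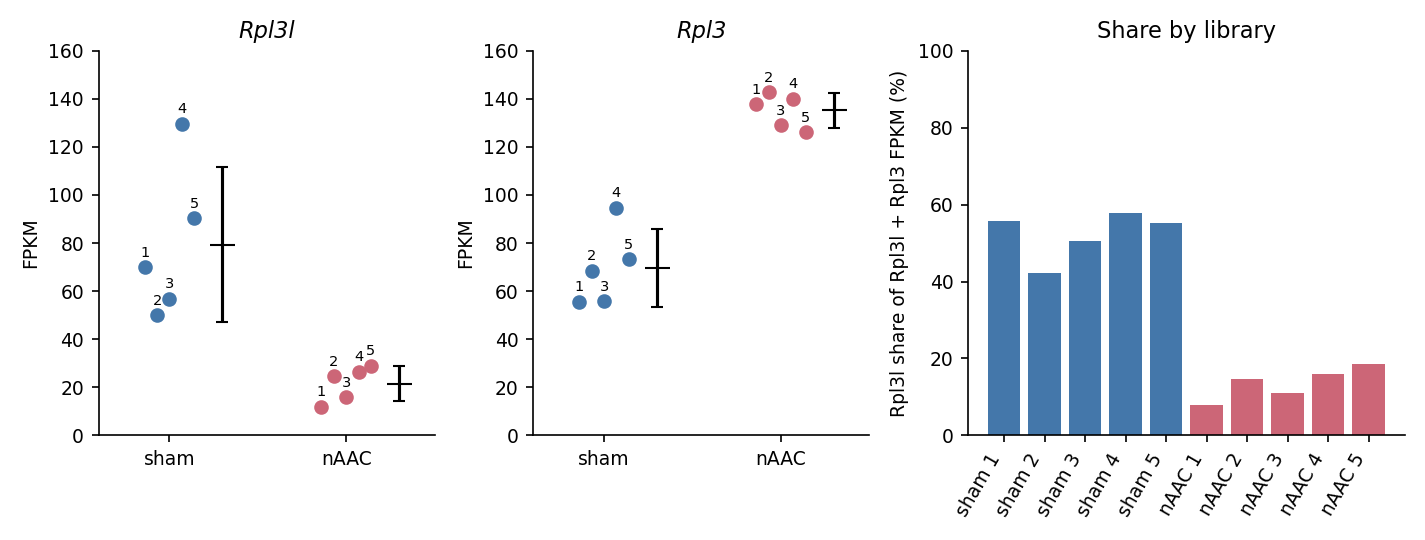
FPKM of Rpl3l (left) and Rpl3 (middle) in each sham and nAAC library, with replicate numbers at the points and black marks for the mean and SD of 5 libraries, and the percentage of Rpl3l in the sum of both FPKM values per library (right). Rpl3l is below 30 FPKM in all 5 nAAC libraries and at 50.02 or more in all 5 sham libraries, Rpl3 lies the other way round, and the share of Rpl3l is at most 18.7% in nAAC and at least 42.2% in sham libraries.

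The ratio of Rpl3l to Rpl3 is formed within a library, so a factor that scales all genes of a library cancels. It was 0.0859, 0.172, 0.124, 0.189 and 0.230 in nAAC replicates 1 to 5. In the sham libraries it was 1.26, 0.730, 1.02, 1.37 and 1.23. Per length of transcript, Rpl3l was thus more abundant than Rpl3 in 4 of 5 sham libraries and less abundant in all 5 nAAC libraries. The geometric mean was 0.151 in nAAC and 1.10 in sham LV, a 7.25-fold lower ratio. The difference of the log2 ratios was -2.86 with an SE of 0.298 (exact permutation test, two-sided, p = 0.00794, n = 5 per group), and a gap of 1.67 on the log2 scale separated the highest nAAC from the lowest sham library. Sham replicate 4, which had the highest level of both genes, had a ratio of 1.37, and without it the difference was -2.78. The spread of Rpl3l between sham libraries was shared in part by Rpl3, so the ratio varied less between the sham libraries than the level of Rpl3l.

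As a share of both transcripts, Rpl3l made up 13.6% ± 4.22 in nAAC and 52.3% ± 6.25 in sham LV (SD, n = 5). Nearly equal transcript levels in sham LV thus stood against a majority of Rpl3 in nAAC LV. The sum of both genes did not separate the groups. It was 157 ± 9.93 FPKM in nAAC, from 145 to 167, and 149 ± 46.6 FPKM in sham LV, from 113 to 224 (SD, n = 5). The nAAC range lay inside the sham range, and no test was made of the sum. Without sham replicate 4 the sham mean of the sum was 130.1 ± 23.0 FPKM and the ranges still overlapped.

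Pseudogene copies of Rpl3 had FPKM values as well. Those of Rpl3-ps1 came to 13.96% to 17.95% of Rpl3 in nAAC and 15.49% to 27.11% in sham libraries. Rpl3-ps1, on chromosome X from 13202571 to 13203780, had 21.1 ± 2.58 FPKM in nAAC and 12.9 ± 2.69 FPKM in sham LV (SD, n = 5), with nonoverlapping groups. Its log2 FC was 0.68 with an SE of 0.147 (limma, adjusted p = 0.00365), in the direction of Rpl3. Since 91.1% of the windows of 50 bases in the Rpl3 coding sequence also occur in Rpl3-ps1, reads from both cannot be told apart with certainty, and the values of Rpl3-ps1 are uncertain for that reason. Rpl3-ps2, on chromosome X from 74170653 to 74171866, was below the limit for the test, with 1.31 ± 0.303 FPKM in nAAC and 0.553 ± 0.106 FPKM in sham LV (SD, n = 5), again higher in nAAC without overlap. In all, 26 genes shared at least 1 such window with Rpl3, and their summed FPKM came to 17.8% ± 1.65 of Rpl3 in nAAC and 20.8% ± 4.65 in sham LV. With all of them added to Rpl3 the difference of the log2 ratio was -2.82. The mean log2 ratio in sham LV then moved from 0.13 to -0.14, and the ratio was above 1 in 3 instead of 4 of the 5 sham libraries, with replicate 3 at 0.788. Which of both transcripts prevailed in sham LV thus depended on where these reads are counted.

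Rpl3 was next set against the rest of the 60S subunit, to see whether the other ribosomal protein genes were higher to the same extent. Of the 46 other 60S protein genes, 3 passed the test as higher and none as lower, with 9 at an unadjusted p below 0.05 (limma). These were 6.52% of the list, below the 27.1% of all genes that were called higher. Their median log2 FC was 0.40, against 0.22 for all genes tested, and these medians were 0.12 and -0.00 after median-ratio scaling. Among those that rose, Rpl12 had 149.7 ± 7.51 FPKM in nAAC and 107 ± 30.6 FPKM in sham LV, and Rpl10 had 272 ± 19.1 against 206 ± 37.3 (SD, n = 5). Both lost the call in 13 of 20 alternatives, which included leaving out single libraries, and both were named after their values were seen. Rpl41 had the highest log2 FC of the subunit, 1.01 with an SE of 0.414, but its groups overlapped and it did not pass (limma, adjusted p = 0.0783). At the low end, Rpl17 had 49.6 ± 11.1 FPKM against 47.9 ± 8.56 FPKM. Among the 47 genes including Rpl3, Rpl3 ranked 2nd by log2 FC and between 1st and 5th in the alternatives tried, and it had the smallest p in this fit and in each of them.

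The count of 60S genes depended on sham replicate 4, whose mean log2 level of these 46 genes was 7.82, where the remaining sham libraries lay between 6.59 and 7.27. Without that library 28 of the 46 genes (60.9%) passed as higher, where 33.1% of all genes did. For that reason each member was also expressed relative to the mean log2 level of the 46 genes in its own library. Rpl3l stood at -2.99 ± 0.436 in nAAC and at -0.79 ± 0.139 in sham LV (SD, n = 5), without overlap. Rpl3 stood at -0.33 ± 0.175 in nAAC and at -0.92 ± 0.281 in sham LV. Here the groups touched, since the lowest nAAC library, replicate 3, and the highest sham library, replicate 2, were both at -0.48. On this scale nAAC replicate 1 held the most Rpl3, at -0.03, while the other nAAC libraries lay between -0.48 and -0.36. Relative to the rest of the subunit, the difference between groups was thus -2.20 for Rpl3l and 0.59 for Rpl3 on the log2 scale. The sum of both members stood at -0.12 ± 0.146 in nAAC and 0.14 ± 0.130 in sham LV, with overlapping groups.

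**Figure D2:**
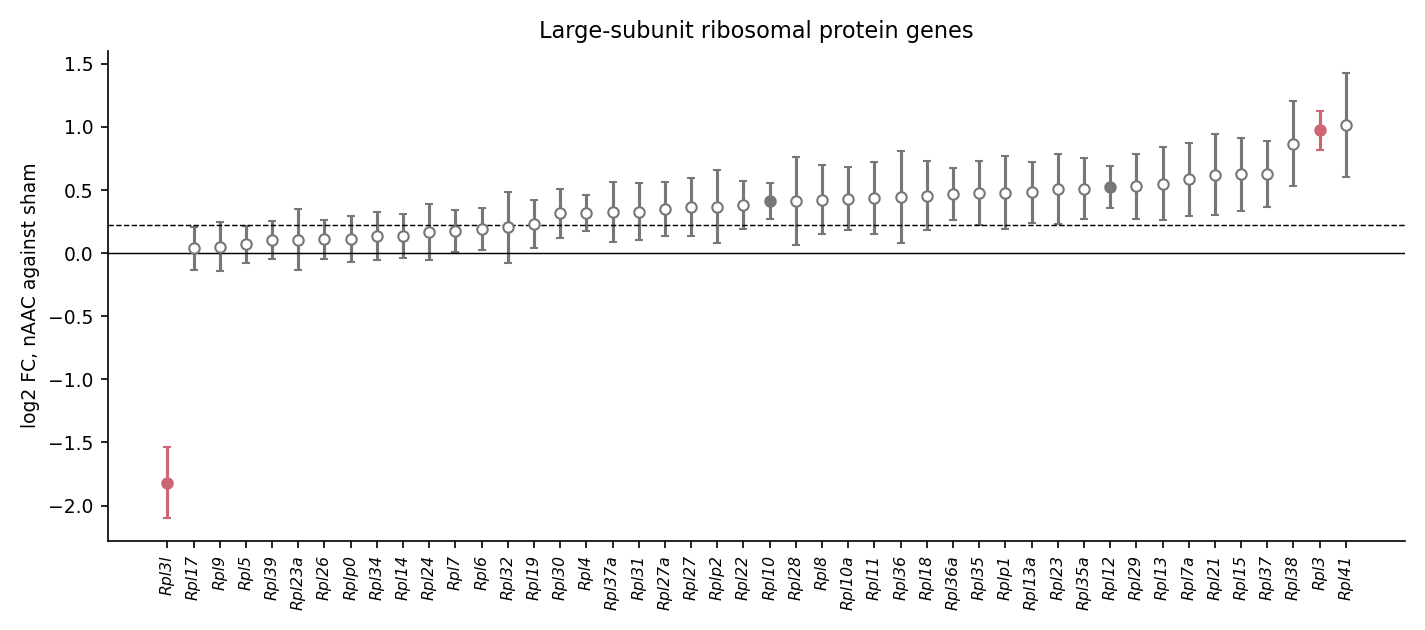
Log2 FC in nAAC against sham, with its SE from limma, for the genes of the large ribosomal subunit in order of their log2 FC. Red symbols are Rpl3l and Rpl3, gray symbols 44 of the 46 other genes, filled symbols passed an adjusted p of 0.05, and the dashed line is the median of all genes tested, 0.22. Rpl3l at -1.82 lies apart from all others shown, and Rpl3 at 0.97 has a smaller SE than the genes beside it.

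The 40S (small) subunit, which neither member belongs to, had 32 genes tested. With limma 0 of the 32 passed, 4 had an unadjusted p below 0.05, and the median log2 FC was 0.32, while 27.1% of all genes were called higher and 4.6% lower. The highest, Rps28, had 55.6 ± 15.3 FPKM in nAAC and 36.1 ± 23.4 FPKM in sham LV, and the lowest, Rps15a, had 86.7 ± 54.1 against 92.6 ± 25.5 (SD, n = 5). This count too rested on sham replicate 4, and without it 16 of the 32 genes passed as higher, beside 33.1% of all genes.

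Rpl3l is 1 of several ribosomal protein paralogs, so the others were listed. Of 7, Rpl10l was at 0 FPKM in all libraries and Rpl39l averaged 0.187 FPKM in nAAC and 0.114 FPKM in sham LV, which left 5 for the test. With limma 0 of these 5 passed, where 31.7% of all genes tested did, and 1, Rpl7l1, had an unadjusted p below 0.05. Rpl22l1, the paralog of Rpl22, had 21.7 ± 10.2 FPKM in nAAC and 28.8 ± 13.4 FPKM in sham LV. Rps4l had 16.1 ± 4.25 against 20.5 ± 5.86 FPKM, and Rpl36al had 66.5 ± 19.3 against 58.7 ± 24.2 FPKM. Rpl7l1 had 13.3 ± 1.39 against 10.8 ± 1.96 FPKM and Rps27l had 90.2 ± 11.3 against 72.8 ± 19.2 FPKM (SD, n = 5). All 5 had overlapping groups. Of all genes tested 22.3% had nonoverlapping groups, 3.46% in the direction of Rpl3l, so 5 genes cannot show whether Rpl3l differs from other paralogs.

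Factors that act on RPL3 or on ribosome assembly were examined next. Grwd1, a histone-binding protein that is also the dedicated chaperone of newly made RPL3, had 5.05, 6.60, 5.78, 5.56 and 4.81 FPKM in nAAC replicates 1 to 5. In sham replicates 1 to 5 it had 3.17, 1.61, 2.34, 3.44 and 3.64 FPKM. All nAAC libraries were above all sham libraries. Grwd1 rose by a log2 FC of 0.80 with an SE of 0.158 (limma, adjusted p = 0.00209). Mettl18, the methyltransferase that modifies a histidine of RPL3, had 1.20 ± 0.375 FPKM in nAAC and 1.59 ± 0.441 FPKM in sham LV (SD, n = 5), with overlapping groups, and did not pass.

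Of 28 genes for ribosome biogenesis, 12 rose, 0 fell and 16 did not pass (limma), with 17 at an unadjusted p below 0.05. In this list 42.9% of the genes were thus called higher, where 27.1% of all genes were, and its median log2 FC was 0.38 against 0.22. Rrp12, which acts in export of the subunits from the nucleus, was its only DEG, with 8.33 ± 0.783 FPKM in nAAC and 1.55 ± 0.378 FPKM in sham LV. Its log2 FC of 1.88 had an SE of 0.121 (limma, adjusted p = 3.13e-07). Bop1, of the complex that processes RNA of the large subunit, rose from 4.95 ± 1.90 to 9.95 ± 0.742 FPKM, and Myc, a transcription factor that drives ribosome production, from 0.891 ± 0.492 to 2.52 ± 0.812 FPKM (SD, n = 5). The lowest log2 FC values belonged to Polr1a, the largest subunit of RNA polymerase I, with 3.89 ± 0.504 against 4.27 ± 0.647 FPKM, and to Gnl2, with 9.09 ± 0.370 against 9.70 ± 1.28 FPKM, neither of which passed. Myc was named after its values were seen. After median-ratio scaling 5 genes (17.9%) passed as higher and 1 as lower, where 13.2% of all genes passed as higher.

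Because Rpl3l is made by muscle cells and Rpl3 by nearly all cells, markers of the cell types of the LV were read beside them. Of 13 CM markers 3 rose (23.1%, against 27.1% of all genes), 3 fell (23.1%, against 4.6%) and 7 did not pass (limma). Their median log2 FC was 0.04. The mean log2 level of the 13 was 9.96 ± 0.181 in nAAC and 9.89 ± 0.181 in sham LV (SD, n = 5), with overlap. The 3 that rose were Des, the muscle intermediate filament, with a log2 FC of 1.36 (SE 0.234), Mybpc3, a thick filament protein, with 0.86 (SE 0.175), and Actc1, cardiac actin, with 0.60 (SE 0.166). Those that fell were Atp2a2, the calcium pump of the sarcoplasmic reticulum, with -0.87 (SE 0.177), its regulator Pln with -0.86 (SE 0.136), and Tnni3, adult cardiac troponin I, with -0.82 (SE 0.226). All 6 adjusted p values from limma were at most 0.0147. Actc1 and Tnni3 were named after their values were seen. Relative to the mean of the 13 markers in its own library, Rpl3l stood at -5.54 ± 0.479 in nAAC and -3.64 ± 0.373 in sham LV, and Rpl3 at -2.88 ± 0.183 and -3.77 ± 0.196. The differences of -1.90 and 0.90 were without overlap for both members, beside log2 FC values of -1.82 and 0.97 for the levels themselves.

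**Figure D3:**
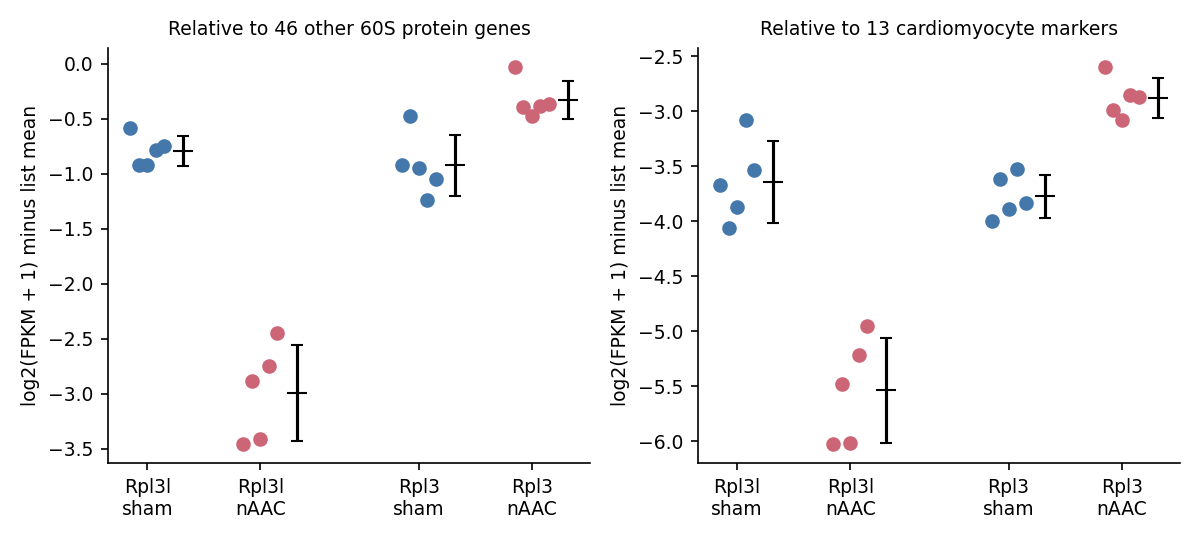
Rpl3l and Rpl3 in each library as log2(FPKM + 1) minus the mean of the 46 other 60S protein genes (left) or of the 13 CM markers (right), with points for libraries and black marks for the mean and SD of 5. Rpl3l is lower in nAAC on both scales, with differences of -2.20 and -1.90 on the log2 scale, while the Rpl3 groups touch at -0.48 relative to the 60S genes and are apart relative to the CM markers.

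Of markers of other cell types, those of fibroblasts moved with the groups. Of 7 fibroblast markers 5 rose (71.4%, against 27.1% of all genes) and 0 fell (limma), with a summed level of 471 to 789.9 FPKM in nAAC and 378 to 402 FPKM in sham libraries. Among them Col1a1, a chain of type I collagen, rose from 10.1 ± 2.34 to 45.9 ± 5.81 FPKM (SD, n = 5). Of 7 endothelial markers 1 rose (14.3%), Kdr, which lost the call in 12 of 20 alternatives, and the sums overlapped at 216 to 348 FPKM in nAAC and 187 to 284 FPKM in sham libraries. Of 7 macrophage markers 2 rose (28.6%), C1qa and Fcer1g, with overlapping sums of 122 to 239 FPKM and 80.9 to 178 FPKM. Both shares lay near or below the 27.1% of all genes. These 4 genes and those of the atrial and skeletal lists were named after their values were seen. Of the atrial markers Nppa, which is also a gene of the hypertrophic ventricle, rose from 121 ± 32.1 to 8217 ± 2127 FPKM. The atrial genes Myl7, with 0.654 to 79.8 FPKM in nAAC and 1.16 to 22.4 FPKM in sham libraries, and Bmp10, with at most 0.0106 FPKM, did not separate the groups. Myl7 differed by library, with 53.98 and 79.8 FPKM in nAAC replicates 2 and 3 and its highest sham value in replicate 1. The part of any of these cell types in the higher level of Rpl3 and the lower level of Rpl3l was not tested.

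Several other proteins of muscle exist in an adult or muscle form and in a widespread or fetal form, and the ratio of Rpl3l to Rpl3 was set beside 11 such pairs. In all 12 pairs the mean log2 ratio was lower in nAAC, and in 7 of them the groups did not overlap. Of the single genes tested 22.3% had nonoverlapping groups, but no such share was taken over ratios of other genes. The pairs were chosen with earlier results of these data known. Rpl3l to Rpl3 ranked 2nd, with a difference of -2.86, after the myosin heavy chains Myh6 to Myh7 with -3.03. The creatine kinases Ckm to Ckb followed with -1.68, the enolases Eno3 to Eno1 with -1.53, and the glucose transporters Slc2a4 to Slc2a1 with -1.45. Slc25a4 to Slc25a5, the adenine nucleotide carriers, and Pgam2 to Pgam1, the phosphoglycerate mutases, had differences of -0.65 and -0.64, and their groups were less than 0.1 apart. Overlapping groups were found for Tnni3 to Tnni1 (-1.29), Cox8b to Cox8a (-0.91), Eef1a2 to Eef1a1 (-0.69), Cox6a2 to Cox6a1 (-0.35) and Cox7a1 to Cox7a2 (-0.27). With 1 added to each FPKM, the difference for Cox6a2 to Cox6a1 was -0.35 with all libraries, -0.15 without nAAC replicate 1 and -0.17 without sham replicate 5, and that for Cox7a1 to Cox7a2 was -0.18 without sham replicate 4. Tnni1 was below the limit for the test, with 1.08 ± 0.453 FPKM in nAAC and 0.726 ± 0.195 FPKM in sham LV (SD, n = 5).

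The pairs differed in which partner carried the ratio. In the myosin pair, Myh7 rose from 97.3 ± 27.4 to 669 ± 230 FPKM, a log2 FC of 2.75 (SE 0.255, limma, adjusted p = 5.81e-06), while Myh6 had 1790 ± 352 against 2149 ± 370 FPKM and did not pass. Likewise Ckb, Slc2a1, Pgam1, Slc25a5, Cox8a and Eef1a1 rose, with log2 FC values of 1.18, 0.9998, 1.11, 0.59, 0.73 and 0.74, and their muscle partners did not pass. Of these, Cox8a lost its call in 11 of 20 alternatives, with an adjusted p of up to 0.139 (limma), 5 of them with a single library left out. In 2 of the 12 pairs, Rpl3l with Rpl3 and Eno3 with Eno1, the muscle form fell and the widespread form rose, each past the adjusted p. The pair of Tnni3, which fell, could not be judged in this way, because Tnni1 was not tested. Of the 12 widespread or fetal forms 9 passed as higher, where 27.1% of all genes did. Of the 12 muscle or adult forms 3 passed as lower, where 4.6% of all genes did. After median-ratio scaling 13.2% of all genes passed as higher. Eno3 fell from 563 ± 155 to 326 ± 56.1 FPKM, a log2 FC of -0.76 (SE 0.193), and Eno1 rose from 56.0 ± 10.5 to 94.0 ± 9.98 FPKM, a log2 FC of 0.75 (SE 0.149). The translation elongation factors Eef1a2 and Eef1a1, another pair of the translation machinery, had a different pattern from the RPL3 pair. Eef1a2 had 312 ± 39.6 FPKM in nAAC and 309 ± 93.7 FPKM in sham LV, and Eef1a1 had 799 ± 80.3 against 476 ± 42.8 FPKM (SD, n = 5).

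**Figure D4:**
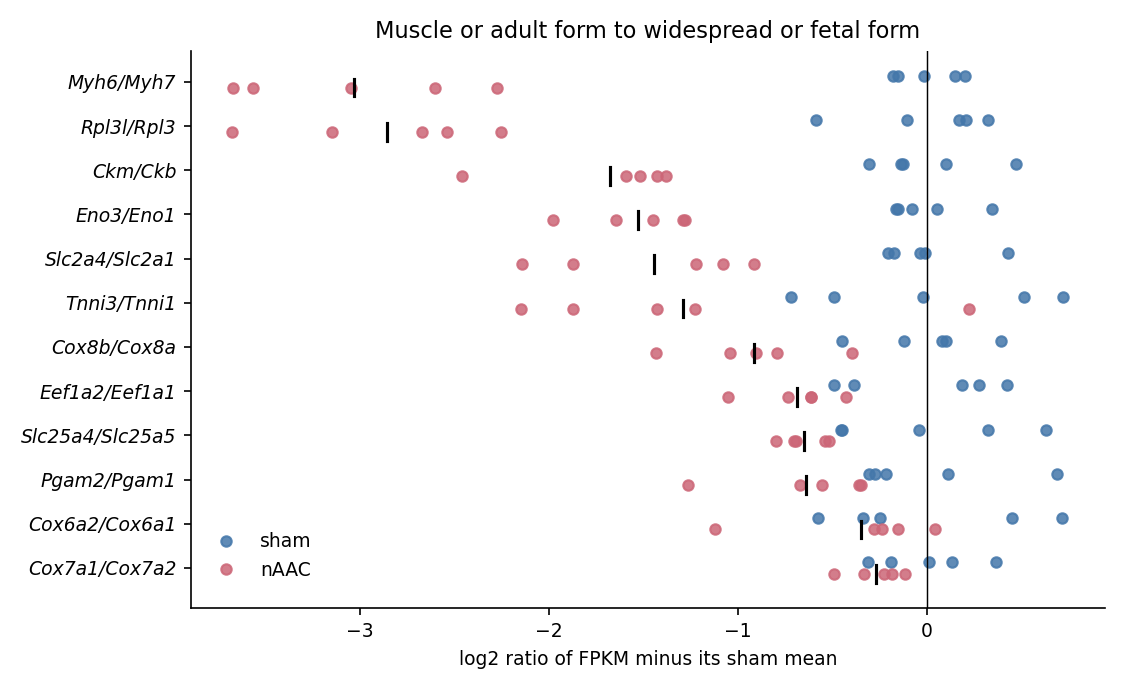
Log2 ratio of the muscle or adult form to the widespread or fetal form for 12 pairs, each library as a point, after subtraction of the sham mean of that pair, with black bars for the nAAC mean. Rpl3l to Rpl3 and Myh6 to Myh7 show the widest separation, with means of -2.86 and -3.03, and the lowest 7 rows hold the pairs whose groups overlap or lie within 0.1 of each other.

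The genes around both members were read for changes that are shared by the locus. Near Rpl3l on chromosome 17, 4 of 6 neighbours were expressed enough to be tested. With limma 0 of the 4 passed and 0 had an unadjusted p below 0.05, while 31.7% of all genes tested passed. Rps2 had 361 ± 24.8 FPKM in nAAC and 372 ± 135 FPKM in sham LV, Ndufb10 had 283 ± 84.98 against 324 ± 161, Msrb1 had 70.9 ± 7.95 against 69.2 ± 29.9, and Tbl3 had 3.25 ± 0.396 against 2.76 ± 0.739 (SD, n = 5). The other neighbours, Hs3st6 and Rnf151, averaged at most 0.0733 FPKM. Of all genes tested, 4.6% passed as lower and 0.893% were DEGs lower in nAAC as Rpl3l was. With shares this low, 4 genes cannot show whether Rpl3l changed apart from its neighbours.

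Near Rpl3 on chromosome 15, 1 of 3 tested neighbours passed as higher (33.3%), near the 27.1% of all genes that did. Pdgfb, a growth factor subunit, had 15.2 ± 3.51 FPKM in nAAC and 10.7 ± 2.18 FPKM in sham LV (SD, n = 5), a log2 FC of 0.46 (limma, adjusted p = 0.0483) that was lost in most alternatives. Syngr1, which starts on the opposite strand inside the annotated span of Rpl3, had 49.6 ± 6.15 FPKM against 37.8 ± 12.1 FPKM and did not pass, and neither did Tab1, with 6.96 ± 0.526 against 5.63 ± 1.76 FPKM. Whether strand was used in the quantification is not given in the sources used here, so reads of Syngr1 and Rpl3 in the shared span might not be separated. The coding transcript of Rpl3 ends at 80083406 and thus lies outside Syngr1, which begins at 80091334. Mgat3 had 0.653 ± 0.131 and 0.304 ± 0.151 FPKM. The small nucleolar RNAs Snord83b and Snord43, which lie within Rpl3, were at no more than 0.603 FPKM in any library.

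To describe which genes varied with each member, Pearson's r of log2(FPKM + 1) was taken over the 10 libraries for all genes tested, and genes among the 5 with the highest r are given. Since the 10 libraries include both groups, these values reflect the group difference as well as the spread within it. For Rpl3l they were Dhrs7c, a reductase of the sarcoplasmic reticulum (r = 0.992), Acaa2, a thiolase of mitochondrial fatty acid oxidation (r = 0.987), Rxrg, a retinoid X receptor (r = 0.986), Ramp1, a receptor activity-modifying protein (r = 0.983), and Fbp2, the muscle fructose-bisphosphatase (r = 0.983). All 5 fell, with log2 FC values from -2.07 for Fbp2 to -0.82 for Rxrg. Dhrs7c went from 105 ± 16.6 FPKM in sham to 49.0 ± 8.81 FPKM in nAAC LV, and Fbp2 from 17.8 ± 6.16 to 3.54 ± 1.65 FPKM (SD, n = 5). For Rpl3 they included Nubp1 (r = 0.986), Atp6ap1, an accessory subunit of the vacuolar proton pump (r = 0.984), Klhl6 (r = 0.982) and Mgp, matrix Gla protein (r = 0.982). These 4 rose, from a log2 FC of 0.52 for Atp6ap1 to 2.21 for Mgp. The choice by r over both groups favours genes that move as the member does. The directions of the genes named for Rpl3l and Rpl3 are therefore no separate result. Without sham replicate 4 these 9 values of r stayed at or above 0.981.

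When the group means were removed first, so that only the spread between mice of 1 group remained, Dhrs7c stayed among the 5 genes most like Rpl3l (r = 0.981). The others were Triap1 (r = 0.994), Dhodh (r = 0.988), Smco4 (r = 0.974) and Mzt2 (r = 0.972), of which none passed the test between groups. For Rpl3 they were Bckdhb (r = 0.952), Eif3m (r = 0.951), Pfkfb1 (r = 0.944), Oard1 (r = 0.935) and H2az1 (r = 0.935). These 5 values lay between 0.809 and 0.868 without sham replicate 4, so they rested in part on that library, while those for Rpl3l stayed at or above 0.958. Of the genes for Rpl3, Bckdhb and Pfkfb1 fell, opposite to Rpl3, with log2 FC values of -0.93 and -1.52 (limma, adjusted p = 7.62e-05 and 4.09e-05). The rest did not pass. Pfkfb1 was low, with 0.222 ± 0.0982 FPKM in nAAC and 2.64 ± 1.19 FPKM in sham LV (SD, n = 5). The points of each correlation share library depth and composition, and no test was made of them.

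The direction of both members and of their ratio was the same in every alternative processing tried. For the ratio, scaling of whole libraries and TPM could not change the value, because such factors cancel. The log2 FC of Rpl3l lay between -2.16 and -1.44 and that of Rpl3 between 0.70 and 1.15. Rpl3 exceeded a log2 FC of 1 with TPM in place of FPKM, at 1.15, and without sham replicate 4, at 1.09, and stayed below it with median-ratio scaling, at 0.70.

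**Figure D5:**
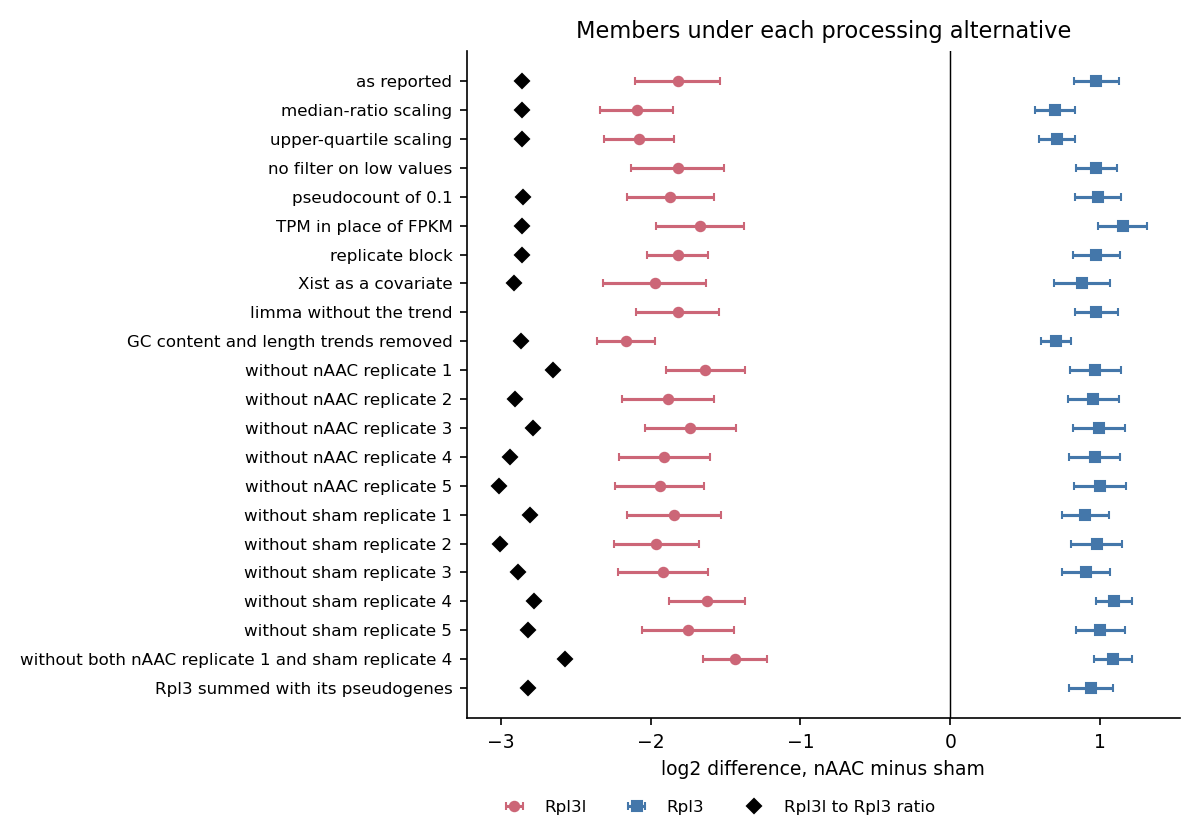
Difference between nAAC and sham on the log2 scale for Rpl3l (circles), Rpl3 (squares) and their ratio (diamonds) as reported and under each processing alternative, with the SE from limma as bars on the genes. Rpl3l stays between -2.16 and -1.44 and Rpl3 between 0.70 and 1.15, each on its own side of 0.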

How the data were processed

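LV RNA of 5 nAAC and 5 sham mice was sequenced from libraries made with an NEBNext Ultra kit. For each mouse the authors deposited a table of genes with coverage (mean reads per base), FPKM (fragments per kilobase normalized for depth) and TPM (FPKM rescaled to a fixed total). The deposited values are mapped to mm10 per the labels, and start, end and strand matched GENCODE M21 for 54816 of 55141 shared genes. Aligner, quantification tool, read length and use of strand are not given in the sources used here. Groups were taken from the labels, which name no sequencing batch. Repeated gene IDs were summed. Counts could not be recovered, so log2(FPKM + 1) was fitted with limma 3.58.1 (R 4.3.3, trended empirical Bayes) where a gene's mean FPKM reached 1, with Benjamini-Hochberg adjustment over 11867 genes. DEGs passed 0.05 in adjusted p and 1 in absolute log2 FC. The fit was tested on simulated data. Ratios and single values were compared by two-sided exact permutation tests (SciPy 1.17.1). Coding sequences were read from GENCODE M21 and aligned with Biopython 1.88, and windows of 50 bases were searched in all annotated transcripts. Lists for both ribosomal subunits, paralogs, assembly, neighbours, cell types and isoform pairs were described by counts and medians.

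Named were both members, their pseudogenes, genes of the pairs and short lists, the 2 highest and 2 lowest log2 FC of the long lists, and the 5 genes most correlated with each member. The members and lists were chosen with earlier results of these data known. Genes that did not pass are given as levels. A few genes that this rule names are not reported here. Alternatives were other scalings, filters, pseudocounts and units, a replicate block, an Xist covariate, removal of GC content and length trends, pseudogenes added to Rpl3, and each library left out. Other assays of the study were not analysed here.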

Additional observations from a re-analysis of the deposited data

Results flagged for a closer look

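In 5 of 160 groups of 5 libraries examined, 1 library lay far from the other 4, by a gap above 0.71 of the whole range of its group (Dixon's 95% critical value). Chance gives such a gap in about 1 in 20 groups, here 8. All 5 gaps were found in nAAC replicate 1. Rpl3 relative to the 46 other 60S protein genes was highest there, at -0.03 on the log2 scale with the next library at -0.36, a gap of 0.754 of the range. The log2 ratio of Ckm to Ckb was lowest there, at 2.50 with the next at 3.37, a gap of 0.804, and so was that of Cox6a2 to Cox6a1, at 1.76 with the next at 2.61, a gap of 0.726. Rpl41 was lowest there, at 7.48 on the log2 scale with the next at 8.25, a gap of 0.745, as was Tnni3, at 10.4 with the next at 10.9, a gap of 0.874. This library also had the greatest estimated depth, 6.82 gigabases, and the lowest ratio of Rpl3l to Rpl3, 0.0859. The part of depth in these values was not tested. Without it the difference of the log2 ratio of Rpl3l to Rpl3 was -2.65.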

How the results depend on the processing

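The log2 FC of Rpl3l and of Rpl3 and their ratio kept their direction in all 20, 21 and 22 alternatives tried, and the genes also their calls, with adjusted p values of 6.52e-06 to 0.00389 for Rpl3l and 3.45e-05 to 0.00684 for Rpl3. Some alternatives could not move the ratio. Median-ratio scaling, upper-quartile scaling and TPM cancel within a library, and the replicate block changes only its p. Leaving out 1 library at a time gave -1.96 to -1.62, 0.90 to 1.09, and -3.01 to -2.65 for the ratio. With the replicate number as a block the ratio differed by -2.86 with p = 0.0625 (exact permutation test), the smallest p that 5 pairs allow. The labels do not say whether replicate numbers pair the mice. Deviations of same-numbered libraries correlated between -0.32 and 0.19, which cannot exclude a pairing.

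The count of 60S genes higher in nAAC, 3 as reported, was 0 with median-ratio scaling, no filter or Xist as a covariate, 1 with upper-quartile scaling, 11 with TPM, 5 with the replicate block, and 1 to 28 with 1 library left out, most without sham replicate 4. The count of 40S genes higher, 0 as reported, was 4 with TPM, 1 with the replicate block, 1 with GC content and length trends removed, and 0 to 16 with 1 library left out. The count of biogenesis genes higher, 12 as reported, was 5 with either scaling, 20 with TPM, 7 with Xist and 8 to 15 with 1 library left out. The share of all genes called higher moved too. From 27.1% as reported it went to 13.2% with median-ratio scaling, 13.7% with upper-quartile scaling, 11.6% with no filter and 13.4% with Xist. It was 24.7% with the replicate block, 14.2% with trends removed, and 41.9% with TPM, where 23.9% of the 60S genes passed. With 1 library left out it was 20.2% to 33.1%. Counts lower, 0 as reported, were 1 for the 60S list with trends removed, 1 for the 40S and 1 for the biogenesis list with either scaling, and 3 and 2 with trends removed. Over all genes 546 were lower as reported, 1431 with median-ratio and 1359 with upper-quartile scaling, and 1883 with trends removed. Without nAAC replicate 1 and sham replicate 4 together, which was added after seeing the data, 35, 19 and 19 genes of the 3 lists were higher. These were 76.1%, 59.4% and 67.9% of the lists, beside 35.5% of all genes. For the ratio, coverage in place of FPKM (-2.92) and the genes sharing 50 bases summed with Rpl3 (-2.82) were also added after seeing the data. Pdgfb turned to -0.0020 with trends removed. The cause of these shifts was not tested. Of the 135 genes of the lists and pairs that were tested and did not pass, 60 changed sign in at least 1 alternative. Depth in reads is unknown, so counting error was not separated from the spread between mice.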
